A study of Mus musculus with 2 samples.

Results

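The miRNAs described here are miR-205 and miR-203, a pair known from skin and other surface epithelia. Every array probe whose name starts with mmu-miR-203 or mmu-miR-205 was taken, either arm, which gave 4 of the 1265 mature miRNA probes: mmu-miR-205-5p, mmu-miR-205-3p, mmu-miR-203-3p and mmu-miR-203-5p, written below without the species prefix. The study measured mature miRNAs in mouse embryonic stem cells that differentiated as embryoid bodies, cell aggregates grown in suspension, on day 10 and on day 0. Both days used total RNA of ATCC line CRL-1934 (strain 129S2/SvPas), cultured with 15% fetal bovine serum and kept in ultra-low attachment dishes. Each day had 1 array of Cy5-labelled RNA, with 3 spots per probe. The sources used here give neither the number of cultures behind each RNA nor whether feeder cells were present. There is no replicate array, so no test was run and each SD below is over the 3 spots of a probe on the same array.

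A miRNA is cut from a hairpin precursor as a short duplex, and usually 1 strand, the guide, stays in the Argonaute protein while the other, the passenger, is lost. The guide recognises messenger RNAs mainly through its seed, bases 2 to 8. In mouse skin, miR-203 accumulates as basal progenitors leave the proliferating layer and represses the transcription factor p63, which maintains the progenitor state. miR-205 is expressed in the basal layer and in hair follicle stem cells, where it keeps PI(3)K-Akt signalling active by repressing its inhibitors. Together with the miR-200 family, miR-205 is also known to repress Zeb1 and Zeb2, transcription factors that silence E-cadherin in the transition from epithelium to mesenchyme. For miR-205 the 5p strand is the usual guide, and for miR-203 the 3p strand.

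The 4 target sequences in the scanner files matched the RefSeq mature sequences of GRCm38.p6 letter for letter. They are shown because each probe reads 1 of these strands, with the seed in capitals.
miR-205-5p: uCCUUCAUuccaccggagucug
miR-205-3p: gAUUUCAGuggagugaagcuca
miR-203-3p: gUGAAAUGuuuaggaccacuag
miR-203-5p: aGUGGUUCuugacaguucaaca
All 4 are 22 bases long, and the GC content was 54.5% for miR-205-5p, 45.5% for miR-205-3p and 40.9% for both strands of miR-203. The seeds of the members differ from each other, and no other probe of the 1265 shared a seed with any of them. The closest other targets were also far in sequence. For miR-205-5p they were miR-682 and miR-760-5p, both at an edit distance of 8 bases, and for miR-203-3p it was miR-6382, also at 8. For the other strands, miR-878-5p was closest to miR-205-3p at 8 and miR-182-3p to miR-203-5p at 7. The next distance was 1 base more and was shared by 9 probes for miR-203-3p, 14 for miR-205-3p and 2 for miR-203-5p.

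The precursors show which strand lies on which arm, with both mature strands in capitals.
Mir205: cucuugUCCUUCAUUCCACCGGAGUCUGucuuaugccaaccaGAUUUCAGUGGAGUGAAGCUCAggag
Mir203: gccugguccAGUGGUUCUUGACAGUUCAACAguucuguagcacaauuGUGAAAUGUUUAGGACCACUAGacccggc
In GRCm38.p6, the Mir205 hairpin lies at chr1:193507463-193507530 on the minus strand, within the bounds of the long non-coding RNA gene Mir205hg and between the coding genes Camk1g and Plxna2. The mature miR-205-5p spans chr1:193507503-193507524. The Mir203 hairpin lies at chr12:112130880-112130955 on the plus strand, between Aspg and Kif26a, and the mature miR-203-3p spans chr12:112130927-112130948. The only RefSeq gene that overlaps it is that of miR-203b, on the opposite strand, for which the arrays had 0 probes. RefSeq gene bounds do not say whether Mir205 is exonic or intronic in its host.

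The miRNA probes as a set were dimmer on the day 10 array, a fall that the spike-in probes shared in part and the 5S rRNA probes did not share. Across all probes, the day 10 array detected 476 and the day 0 array 738, where a detected probe had a median over its 3 spots higher than the array's threshold, the 95th percentile of its 5 blank spots. It was 71.4 on day 10 and 70.0 on day 0. For the 739 probes detected on at least 1 array, scanner signal fell by a median of 0.77 on the log2 scale, and 62 were brighter on day 10. The corresponding medians were -0.25 for 19 spike-in probes (SD 0.15 over probes) and 0.15 for 5 probes of 5S rRNA (SD 0.21). Levels were background-corrected with an offset of 50, log2 transformed and quantile normalized, which brought the median of the 739 probes to 0.024. Quantile normalization also removes the part of the fall that the control probes did not share. A miRNA was called higher or lower where its difference reached 2-fold and the brighter array detected it. By this rule 6.77% of the 739 probes were called higher on day 10 and 10.4% lower.

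miR-205-5p was the only member called, and it was called higher on day 10. Its spots read 349, 432 and 394 in scanner signal on day 10, against 158, 185 and 161 on day 0. The days did not overlap, as the dimmest day 10 spot was above the brightest day 0 spot, and the spot at each array position was between 2.20 and 2.45 times as bright on day 10. Both arrays detected the probe, with median spots 5.52 times the detection threshold on day 10 and 2.29 times on day 0. The mean scanner signal was 391.5 ± 41.4 on day 10 and 168 ± 14.6 on day 0 (SD, 3 spots), a ratio of 2.33.

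The normalized log2 level of miR-205-5p was 9.22 ± 0.14 on day 10 and 7.13 ± 0.10 on day 0 (SD, 3 spots). The log2 difference was 2.10 (SD 0.081), or 4.28-fold on the scale of corrected signal plus 50, which understates the change of dim probes. The scanner signal itself differed by 1.22 (SD 0.076) on the log2 scale, so the size of the fold depends on how the arrays are scaled to each other. In the authors' processed intensity, whose scaling is not given in the sources used here, the probe had 532 on day 10 and 79.7 on day 0, a ratio of 6.67. With 1 bulk RNA per day, more cells that make miR-205 and more miR-205 per cell cannot be told apart.

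The difference of miR-205-5p ranked 3rd among the 739 detected probes, after miR-302d-3p (2.48) and miR-363-3p (2.35). In scanner signal without any correction it ranked 4th of 739, after miR-302d-3p (1.63), miR-302a-3p (1.48) and miR-363-3p (1.46). Among the 475 probes that both arrays detected, the median normalized difference was 0.22. The call was made under every one of the 17 settings tried, including the main one, with differences from 1.02 with the 5S rRNA probes set equal to 3.42 with the blank spots subtracted. Relative to the median of the detected probes under the same setting, the value stayed between 1.79 and 3.97, and its rank stayed between 3 and 16.

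**Figure D1:**
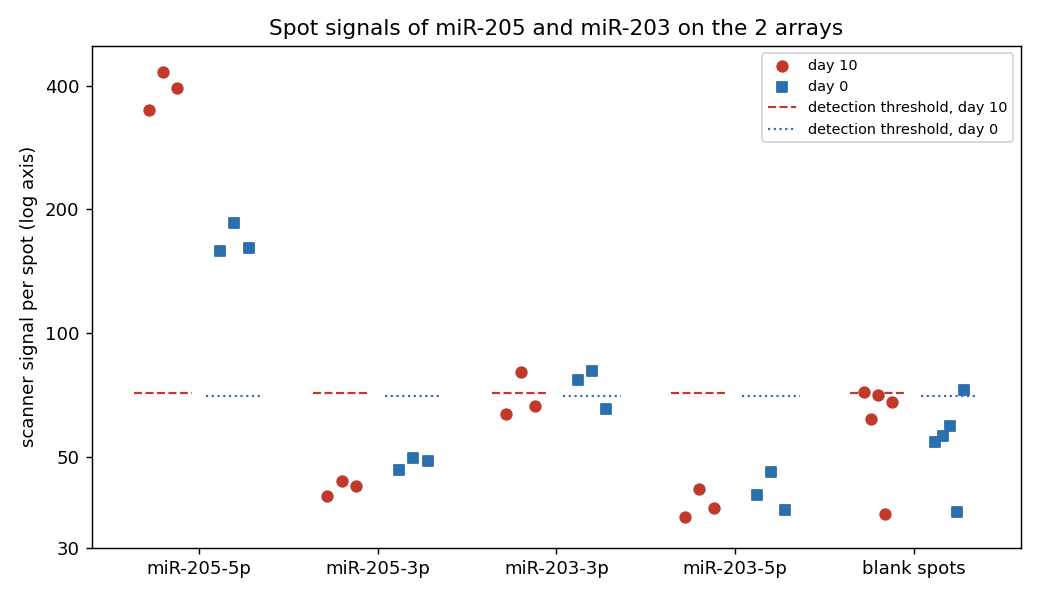
Scanner signal per spot on a log axis for the 4 probes of miR-205 and miR-203 (3 spots each) and for the 5 blank spots, with day 10 as circles on the left and day 0 as squares on the right of each pair; the dashed and dotted lines are the detection thresholds of 71.4 on day 10 and 70.0 on day 0. The spots of miR-205-5p stand well above the threshold and do not overlap between the days, those of miR-203-3p scatter around it, and those of the other strands lie below it.

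miR-203-3p, the guide strand of miR-203, was near the limit of detection on both arrays, and neither direction was called. Its spots read 63.3, 80.4 and 66.5 on day 10, against 77.0, 80.9 and 65.4 on day 0. The groups overlapped: 1 of 3 spots was brighter on day 10 than its counterpart at the same position on day 0. On day 10, 1 of 3 spots lay above the threshold, and the median of 66.5 was 0.931 times the threshold, so the probe was not well above background. On day 0, 2 of 3 spots lay above it, and the median of 77.0 was 1.10 times the threshold.

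The mean scanner signal of miR-203-3p was 70.1 ± 9.05 on day 10 and 74.4 ± 8.06 on day 0 (SD, 3 spots). The difference in scanner signal was -0.088 on the log2 scale (SD 0.17), less than the spread between spots. After quantile normalization the level was 6.79 ± 0.18 on day 10 and 6.30 ± 0.098 on day 0, and the difference was 0.49 (SD 0.15), under the 2-fold rule. Quantile normalization assigns values by place within the array. In order of scanner signal, miR-203-3p was at place 505 of 1265 on day 10 and 687 on day 0. The day 10 array did not detect the probe, so this difference rests on a signal not above background and is not a measured fold.

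The sign of the miR-203-3p difference depended on the scaling. It was above 0 in 15 of the 17 settings and below 0 otherwise, at -0.014 with no normalization and -0.16 when 5S rRNA probes were set equal. The 15 include the settings that change the detection filter alone, which repeat the main value. They also include blank subtraction (0.36), which puts spots below the median blank spot at a fixed floor. On day 10 that median was 68.1, and the spots of 63.3 and 66.5 lay below it. No setting brought it to 2-fold, and the highest value was 0.94, with 75th percentile scaling. Relative to the median of the detected probes it stayed between 0.27 and 0.91. Set against the spike-in probes, it was 0.21. In the authors' processed intensity the probe had 43.9 on day 10 and 18.3 on day 0, a ratio of 2.40, or 0.46 as log2 of the value plus 50, with the same limit on day 10.

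The other strands were detected on neither array. miR-205-3p, the passenger of miR-205, read 40.2, 43.6 and 42.3 on day 10, against 46.3, 49.6 and 48.7 on day 0. Its scanner signal was lower at all 3 positions, by -0.20 on the log2 scale (SD 0.012), and its normalized difference was 0.055 (SD 0.031). miR-203-5p, the passenger of miR-203, read 35.6, 41.6 and 37.4 on day 10, against 40.3, 45.8 and 37.1 on day 0. Its normalized difference was 0.080 (SD 0.064). For both strands every spot lay within the range of the blank spots, 36.2 to 71.6 on day 10 and 36.6 to 72.7 on day 0, or below it, so no level or fold is given.

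**Figure D2:**
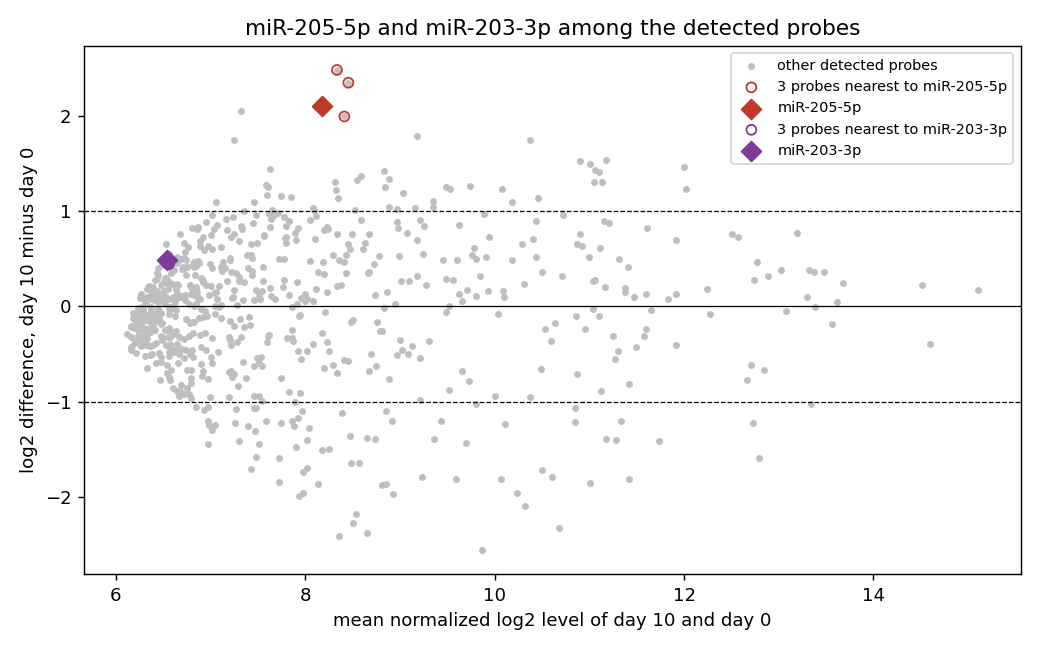
Log2 difference, day 10 minus day 0, against the mean normalized log2 level of both days for the 739 detected probes (grey points), with miR-205-5p and miR-203-3p as diamonds and the 3 probes with the nearest pair of levels to each as open circles; dashed lines mark 2-fold. miR-205-5p lies at 2.10 near the upper edge, and miR-203-3p at 0.49 among dim probes, where it covers its 3 neighbours.

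The probes with the most similar pair of levels were found by the straight-line distance between their normalized log2 levels on day 10 and day 0, which rests on 2 arrays only. For miR-205-5p these were miR-19a-3p (distance 0.34), miR-302d-3p (0.35) and miR-363-3p (0.43). miR-19a-3p belongs to the proliferation-linked miR-17-92 cluster and differed by 1.99 (SD 0.18), or 0.86 and uncalled with 5S rRNA probes equal. miR-302d-3p belongs to a cluster of pluripotent cells and differed by 2.48 (SD 0.12), and miR-363-3p, of the miR-106a-363 cluster, differed by 2.35 (SD 0.17). For miR-203-3p the nearest were miR-5627-5p (distance 0.025), miR-130b-5p (0.030) and miR-489-3p (0.043), with normalized differences of 0.49, 0.45 and 0.44. Like miR-203-3p, these 3 were detected on day 0 alone.

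The nearest measured precursors on the chromosome showed no call. Mir205 has no close neighbour on the arrays: Mir3473c lies 1509 kb to 1 side and Mir3962 lies 1314 kb to the other. miR-3473c was detected on neither array, and miR-3962 differed by 0.076 (SD 0.027). Mir3073a lies 21.6 kb from Mir203 at lower coordinates, and both its strands were detected on neither array. Mir153, 5120 kb away on the other side, was likewise undetected on both strands. Of the neighbours of Mir205, miR-3962 alone was detected and could be called. Whether precursors this far apart share transcription was not tested.

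Among other miRNAs of epithelia, the detected 3p strands of the miR-200 family were called higher on day 10, as miR-205-5p was. This family shares with miR-205 the repression of Zeb1 and Zeb2, and its 3p strands are the guides. It had 10 probes, of which 4 were detected on day 10 and 8 on day 0. Of these 8, 4 were called higher and 0 lower, beside 6.77% and 10.4% over all 739 probes. The median difference was 0.51, beside 0.024 over all 739 probes. Over the 4 detected on both days it was 1.23, beside 0.22 over all 475 such probes. The median spot of miR-200b-3p read 441 on day 10 and 420 on day 0, a difference of 1.26 (SD 0.14). miR-200c-3p had 181 on day 10 and 154 on day 0 (1.25, SD 0.086), miR-429-3p had 315 on day 10 and 277 on day 0 (1.22, SD 0.056), and miR-200a-3p had 198.8 on day 10 and 175 on day 0 (1.16, SD 0.14). In scanner signal these 4 differed by 0.17, 0.34, 0.18 and 0.23, in the same order, against 1.22 for miR-205-5p. These 4 calls depended on the scaling and were lost with no normalization (0.18 to 0.34), with the spike-in probes equal (0.40 to 0.57) and with 5S rRNA probes equal (0.031 to 0.19), settings in which miR-205-5p kept its call. The 5p strands of miR-141, miR-200a, miR-200b and miR-200c passed detection through day 0 alone. Their median spots read 46.9, 51.0, 55.8 and 43.5 on day 10, against 164, 134, 95.0 and 85.9 on day 0, and none was called in the main setting. All 4 were called lower with blank spots subtracted. That setting puts every spot below the array's median blank spot at a fixed floor. The day 10 median spots of all 4 lie below that blank median of 68.1, so the size of these differences rests on the floor. miR-141-5p was also called lower with no normalization (-1.36), spike-in probes equal (-1.13), 5S rRNA probes equal (-1.50), an offset of 16 (-1.33) and no background correction (-1.03). The same held for miR-200a-5p with no normalization (-1.11) and 5S rRNA probes equal (-1.26). miR-141-3p, with 58.2 on day 10 and 58.9 on day 0, and miR-429-5p were on neither array above the threshold.

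In the miR-183 cluster, expressed in sensory organs and other epithelia, 4 of 6 probes were detected, on both days. Of these, 1 was called higher and 0 lower (6.77% and 10.4% over all 739 probes). The median difference was 0.87, beside 0.22 over all 475 probes detected on both days. The median spot of miR-182-5p read 2552 on day 10 and 2077 on day 0, and differed by 1.41 (SD 0.10). This call was lost with no normalization (0.40), with the spike-in probes equal (0.63) and with 5S rRNA probes equal (0.26). miR-183-5p, miR-96-5p and miR-183-3p differed by 0.90 (SD 0.13), 0.83 (SD 0.011) and 0.76 (SD 0.14), and all 3 were slightly dimmer in scanner signal on day 10.

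miRNAs studied in epidermis and hair follicle were not called higher with miR-205-5p. This list of miR-21a, miR-22, miR-24, miR-31, miR-34a, miR-125b, miR-184 and miR-214 had 18 probes, of which 8 were detected on day 10 and 13 on day 0. Of the 13, 0 were called higher and 5 lower, beside 6.77% and 10.4% over all 739 probes. The median was -0.54, or -0.98 over the 8 detected on both days. The lower probes were miR-125b-5p (-2.56, SD 0.050), known from skin stem cells and from mesenchymal and neural tissue, miR-214-5p and miR-214-3p (-1.45 and -1.44), which mesenchyme also makes, miR-21a-5p (-1.21) and miR-22-3p (-1.21). miR-214-5p was not detected on day 10 and was at least 2.73-fold lower in the main setting, where this bound rests on its own day 10 level. With 75th percentile scaling its difference was -1.37. miR-31-5p, known from keratinocytes, had 120 on day 10 and 241 on day 0 and differed by 0.16 (SD 0.097), and miR-34a-5p differed by 0.15 (SD 0.15). miR-184-5p differed by -0.76 and miR-24-3p by -0.086. miR-21a-3p, miR-22-5p, miR-24-2-5p and miR-34a-3p were detected on day 0 alone and were not called.

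**Figure D3:**
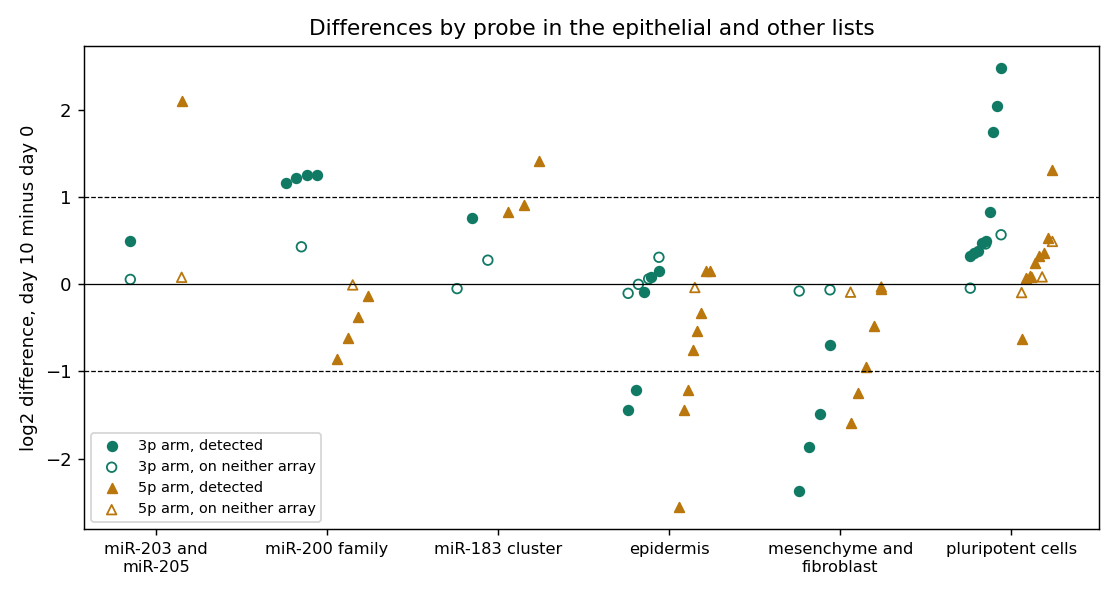
Log2 difference, day 10 minus day 0, for each probe of miR-203 and miR-205, of the 3 epithelial lists and of the mesenchymal and pluripotent lists, with 3p strands as circles, 5p strands as triangles, open symbols for probes detected on neither array and dashed lines at 2-fold. miR-205-5p at 2.10 and the 4 detected 3p strands of the miR-200 family between 1.16 and 1.26 lie above 2-fold. So do miR-182-5p at 1.41 and 4 probes of the pluripotent list. In the epidermis list 0 probes were called higher and 5 lower, with a median of -0.54. The 5 mesenchymal probes detected on both days lie below 0.

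Markers of other cell types also differed between the arrays, and their part in the miR-205-5p difference was not tested. Of the 13 probes for mesenchyme and fibroblasts, 5 were detected on day 10 and 9 on day 0. Of the 9, 0 were called higher and 5 lower, beside 6.77% and 10.4% over all 739 probes. The median was -1.24 (-1.49 over the 5 detected on both days). The miR-199a-3p probe, which also matches miR-199b-3p, had the largest difference (-2.38, SD 0.17). Among the called probes, miR-199a-5p and miR-199b-5p were detected on day 0 alone, and were at least 2.87-fold and 1.80-fold lower. The bound of miR-199b-5p is under the 2-fold rule. The summed median signal of this list was 977 on day 10 and 5331 on day 0. Of the 24 probes for pluripotent cells, 17 were detected on both days. Of the 17, 4 were called higher and 0 lower, beside 6.77% and 10.4% over all 739 probes. Their median was 0.38, beside 0.22 over all 475 probes detected on both days. The summed median signal of the 24 was 67479 on day 10 and 82915 on day 0. The pluripotency miRNAs of the labelled stem cells were thus detected on both days, and miR-302d-3p had the largest difference of the list (2.48).

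Few markers of other differentiated tissues were detected on at least 1 array. These were 3 of 9 neural, 1 of 9 muscle, 4 of 9 blood, 4 of 9 endoderm and liver and 1 of 2 endothelial probes, beside 739 of all 1265. The medians were 0.89, -1.12, 0.094, 0.083 and 0.97 in the same order. miR-206-3p of muscle was called lower (-1.12, SD 0.14), with no other call. Over all 739 probes 6.77% were called higher and 10.4% lower, so these few calls are not read as a result about the tissues. Of the 4 blood probes and of the 4 of endoderm and liver, 1 each was detected on day 10, miR-150-5p (0.72) and miR-194-5p (0.76). The largest neural difference was 0.98 (miR-128-3p) and the endothelial one 0.97 (miR-126-3p), both just under the rule and past it in several settings. In the blood list it was that of miR-223-3p, which was not detected on day 10, with 48.0 on day 10 and 165 on day 0. The arrays carry no messenger RNA, so the presence of epithelial cells was not checked against keratins or p63.

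**Figure D4:**
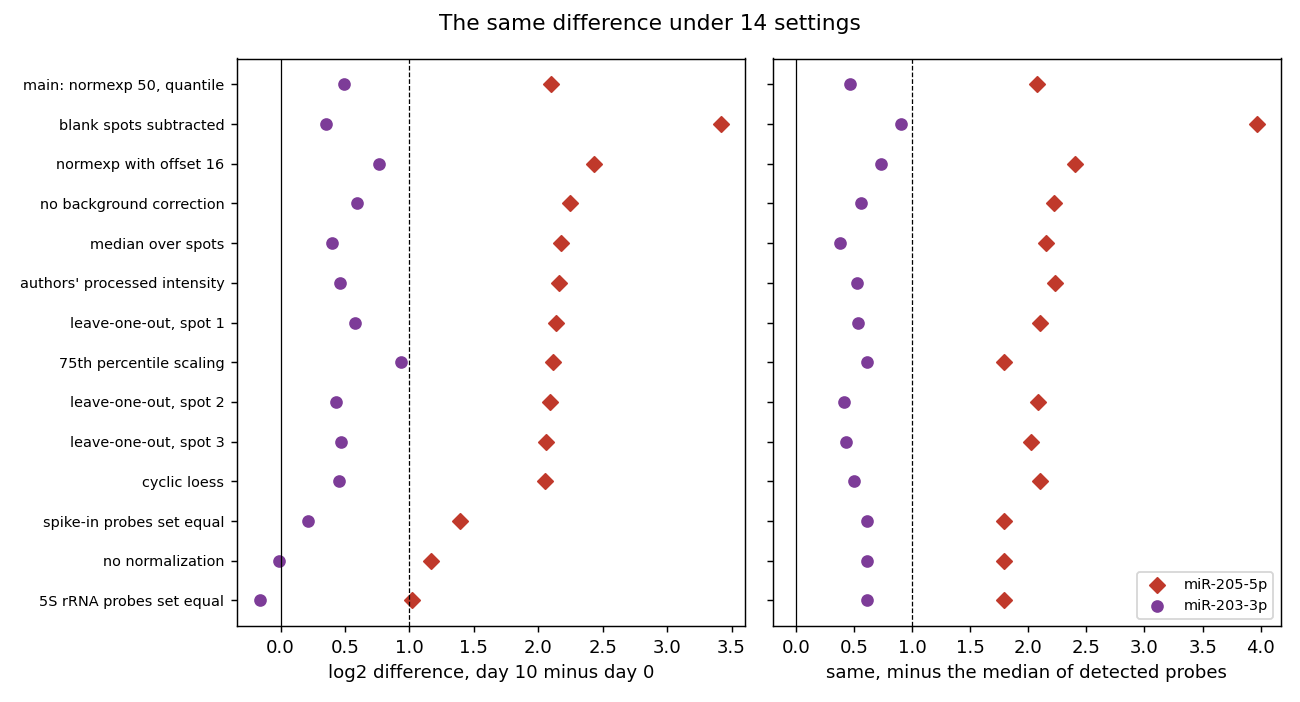
Log2 difference, day 10 minus day 0, of miR-205-5p (diamonds) and miR-203-3p (circles) under the 14 settings that change the values (left panel), and the same minus the median of the detected probes under that setting (right panel); the dashed line marks 2-fold. miR-205-5p lies between 1.02 and 3.42 in the left panel, and miR-203-3p between -0.16 and 0.94, crossing 0 in the lowest rows.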

How the data were processed

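RNA of day 10 and of day 0 was hybridised to 1 single-colour array each, with probes for release 19 of miRBase, per the labels. Per the file headers, the deposited scanner files give a linear median density (intensity) per spot, without a background column; no source used here states how or whether it was background-subtracted or normalized. A second table holds the authors' processed intensity per probe, with its background subtraction and scaling not given in the sources used here. Across probes it ranked as the scanner files do (Spearman rho 0.996 for day 10 and 0.998 for day 0).

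Each array has 3968 spots, 3795 of them for the 1265 mature probes. Signals were corrected with normexp in limma 3.58.1 (R 4.3.3, offset 50, all spots in the fit) and log2 transformed. Control spots were then left out, the arrays were quantile normalized, and 3 spots per probe were averaged. The SD of a difference is over the 3 array positions. With 1 array per day no p-value can be given, and the number of arrays limits the precision. Among the listed probes, miR-214-5p, miR-199a-5p and miR-199b-5p were called but undetected on the dim array. For each, the fold is "at least" its bright level over the higher of its own level and the lowest detected level of that array. Other differences of probes undetected on 1 array rest on the offset scale and are no measured folds.

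The members and the 10 lists of other miRNAs were chosen with earlier results of these data known. Named miRNAs are the members, the detected probes of the 3 epithelial lists, the largest difference in each other list, the 3 nearest patterns per guide strand, the closest sequences and the nearest measured precursors. miRNAs singled out beyond this rule, such as miR-302a-3p, were chosen after their values were seen. Alternatives changed the offset, background correction, scaling, spot summary, detection filter, fold and source of values. The procedure was tested on simulated arrays, where the changed probes were drawn from those brighter on day 0 than the median detected probe. Changes in dimmer probes were thus not covered. On day 0, miR-205-5p was at place 417 of scanner signal and miR-203-3p at place 687, with 738 probes detected. Sequences and coordinates are from RefSeq, GRCm38.p6, where 4 of 4 members matched.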

Additional observations from a re-analysis of the deposited data

How the results depend on the processing

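No alternative changed the miR-205-5p call, and no alternative made one for miR-203-3p. The miR-205-5p difference was 1.02 with the 5S rRNA probes equal, 1.16 with no normalization, 1.39 with the spike-in probes equal, 2.25 without background correction, 2.43 with an offset of 16 and 3.42 with blank spots subtracted. The miR-203-3p difference was -0.16, -0.014 and 0.21 under the first 3 of these, 0.76 with an offset of 16 and 0.94 with 75th percentile scaling. Leaving out each spot in turn gave 2.06 to 2.14 for miR-205-5p and 0.43 to 0.58 for miR-203-3p. The counts of probes called higher and lower, 50 and 77, were 4 and 267 with the 5S rRNA probes equal, 6 and 232 with no normalization, 6 and 178 with the spike-in probes equal, 154 and 300 with blank spots subtracted, and 4 and 7 at 4-fold; an offset of 16 gave 81 higher. Spike-in, 5S rRNA, 75th percentile and no scaling differ by a constant, so they are not separate checks. For the other 52 named probes, 519 values moved by less than their spot SD and 313 by more. The settings that change the detection filter alone repeat the main value. Their values could not move and are among the 519, so this count overstates the stability. No called one changed sign, but of 15 called probes 7 lost the call in at least 1 setting: miR-200a-3p, miR-200b-3p, miR-200c-3p, miR-429-3p and miR-182-5p under the first 3 settings above, miR-19a-3p with the 5S rRNA probes equal (0.86) and miR-214-5p among probes detected on both arrays. A call was gained in at least 1 setting by 18 probes. Among them, miR-126-3p and miR-128-3p gained higher calls. Lower calls were gained by miR-141-5p, miR-200a-5p, miR-184-5p, miR-24-3p and miR-223-3p, among others. With blank spots subtracted, spots below the median blank spot sit at a fixed floor, so differences of such dim probes there rest on it. No paired analysis was possible because there is only 1 array per day. Dimness relative to the blank spots limits miR-203-3p and both passenger strands. Other causes of these shifts were not tested.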
